A study of Drosophila melanogaster with 18 samples.

Results

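Chromosome 4 is the small dot chromosome of *Drosophila melanogaster*, and 46 of its genes were followed through 18 arrays of whole males. The genes were taken from a list of names on this chromosome, without a threshold on a measured value. The list does not hold every gene of the chromosome, and it was chosen with earlier results of these data known. Of the 46, 40 genes were measured by 55 probe sets that the array annotation gives to that gene alone, out of 18769 probe sets tested. The 5 genes pan, lgs, pho, CaMKII and PlexA had no probe set that the annotation gives to that gene alone, and were not analysed. Probe sets given to several genes were not searched for them. The probe set of JYalpha, the Na+,K+ ATPase alpha subunit gene known for its part in hybrid male sterility, carries 2 gene identifiers and was kept out of the counts. Another 25 chromosome 4 genes with 27 probe sets, outside the list, served as a comparison.

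Males of 3 treatments were measured, each with 3 populations and 2 arrays per population. Arrays are named by treatment, population and male, so that MLX 3-2 is male 2 of MLX population 3. The deposited labels give 1 male per array, whereas the methods describe each RNA as coming from a group of males. RNA came from the whole body of adults at day 14, 4 days into adult life.

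All flies came from LHm, an outbred laboratory stock, and were kept under one culture regime. Control males inherited their X from the mother as usual. CDX males had a Control father and a DX mother, whose X chromosomes are joined at the centromere, so that they carried a paternal X for a single generation and took their Y from the mother. MLX males came from populations in which DX mothers had passed the X from father to son for many generations, with some males from a recombining side population added back. CDX and MLX males therefore shared a DX mother, a paternal X and a maternal Y, and effects of these cannot be told apart. By the paper, the Y of CDX males had been able to evolve in MLX populations. Chromosome 4 was inherited from both parents in every treatment. In CDX males it came from the Control father and from the DX mother, who also passed on that Y. Whether the mother's copy came from the MLX populations was not tested. Control and MLX populations were kept apart during the experiment, and differences in their chromosome 4 variants were not tested.

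The dot chromosome is almost wholly packaged as heterochromatin and rarely recombines, yet its genes are transcribed at levels like those of other autosomes. In flies this is tied to Pof, a protein that binds transcribed genes of the chromosome and raises their output, and to heterochromatin protein HP1a, which lies over the same genes. Many of its genes act in development and in the nervous system, among them the eye selector genes ey and toy and the Hedgehog effector ci.

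Most of the listed genes were slightly lower in CDX males than in Control males. The log2 difference was below 0 for 42 of 55 probe sets (76.4%), against 49.3% of all probe sets. The median difference was -0.054, a change of -3.67% in level, beside a median of 0.0011 over all probe sets. In MLX males 38 of 55 (69.1%) were below Control, against 48.7% of all, with a median of -0.024 beside 0.0023. Between MLX and CDX males 19 of 55 (34.5%) were below 0, against 49.0% of all, with a median of 0.022 beside 0.0015. The first and the second comparison share the Control arrays, so they are not independent of each other.

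No single probe set carried this shift past the test. In limma, where the 9 populations formed a random block and p-values were adjusted over all 18769 probe sets, 0 of 55 passed an adjusted p of 0.05 in any of the 3 comparisons, with 0.0% of all probe sets called in each, and the adjusted p of every listed probe set rounded to 1.0. At an unadjusted p under 0.05 from limma, 1 probe set was higher and 3 were lower in CDX than in Control males (backgrounds of 1.5% and 1.49%). In MLX against Control males 1 was higher and 2 were lower (2.16% and 2.04%), and in MLX against CDX males 2 were higher and 1 was lower (1.43% and 1.18%). The standard error of a difference had a median of 0.074 over the 55 probe sets, larger than the median difference itself, so that a shift of this size in a single gene was not detectable with 6 arrays per treatment. The labels do not say that the arrays of a population came from separate cultures, so the p-values measure the spread between these arrays and populations.

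The other chromosome 4 genes had nearly the same medians as the listed ones. Over their 27 probe sets the median was -0.058 for CDX minus Control, -0.026 for MLX minus Control and 0.022 for MLX minus CDX. Of the 27, 19 were lower in CDX than in Control males, and 0 passed the adjusted threshold in limma, with 1 (mav, a ligand of the TGF-beta family) at an unadjusted p under 0.05. The medians of the X chromosome and of the 4 large autosomal arms lay between 0.0003 and 0.006 for CDX minus Control and between 0.0054 and 0.0088 for MLX minus Control.

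To see which arrays held the shift, the deviation of each array from the mean of all 18 was taken for every listed probe set, and the median of the 55 deviations was used as the array's level. This level ranged from -0.052 to 0.073 over the 6 Control arrays, with a median of 0.052. It ranged from -0.087 to 0.010 over the CDX arrays, with a median of -0.020. It ranged from -0.047 to 0.162 over the MLX arrays, with a median of -0.027. The 3 ranges overlapped. Control 1-1 lay among the lowest arrays and MLX 3-2 lay above every other array.

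**Figure D1:**
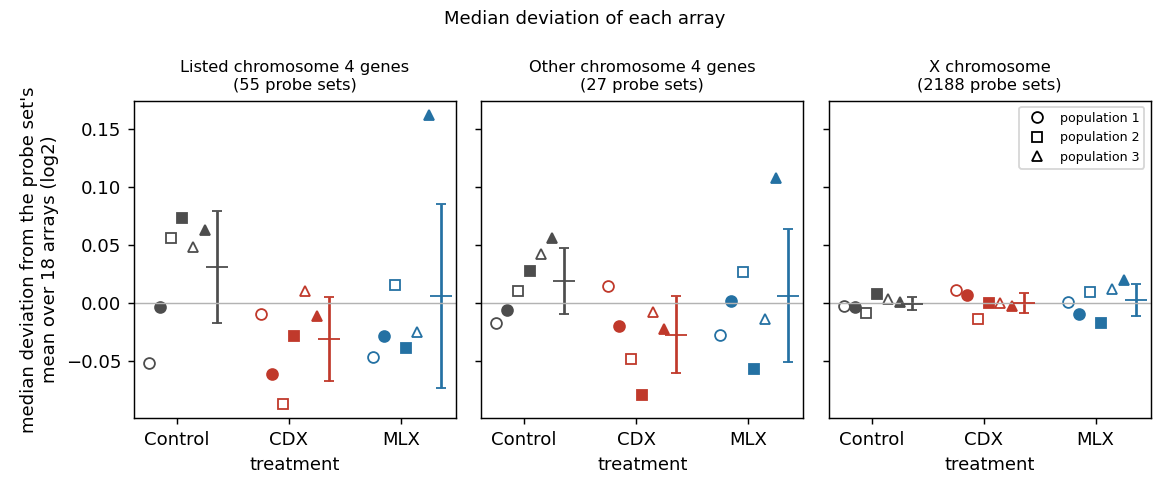
Median deviation (log2, vertical axis) of each array from the probe sets' means over 18 arrays, by treatment, for the listed genes, the other chromosome 4 genes and the X chromosome. Circles, squares and triangles mark populations 1, 2 and 3, open symbols male 1 and filled symbols male 2, and the bar gives the mean and SD of 6 arrays. In the left panel 4 Control arrays lie between 0.048 and 0.073, Control 1-1 lies at -0.052 and MLX 3-2 at 0.162, while the X chromosome stays near 0.

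The Control males themselves were not uniform. Control populations 2 and 3 stood at 0.058 and 0.059, with 46 and 44 of 55 probe sets above their own mean, while Control population 1 stood at -0.024, with 36 of 55 below. The CDX populations stood at -0.030, -0.059 and -0.001. MLX populations 1 and 2 stood at -0.041 and -0.024, and MLX population 3 at 0.060. Control population 1 thus lay within the range of the CDX populations, and MLX population 3 lay at the level of the other Control populations. Against the mean of the Control populations, the median was -0.063, -0.085 and -0.028 for CDX populations 1, 2 and 3, and -0.065, -0.058 and 0.041 for MLX populations 1, 2 and 3.

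The medians moved when a population or an array was left out. Without Control population 1 the median of CDX minus Control was -0.080, and without Control population 2 it was -0.031. Without the array MLX 3-2, a choice made after its values were seen, the median of MLX minus Control was -0.063 and 83.6% of the probe sets were lower. In the same fit the median of MLX minus CDX was -0.0084 and 61.8% were lower, so its direction turned. MLX minus CDX was also slightly below 0, at -0.0015, without the whole of MLX population 3.

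MLX 3-2 was high across the chromosome. It lay above the 18-array mean at 48 of 55 listed probe sets, against 49.7% of all probe sets, and was the highest of the 18 arrays at 25 of them (45.5%), against 9.56% of all. At the other chromosome 4 genes it was the highest at 6 of 27 and stood at 0.108. Its median over all probe sets was -0.0012. Its deviation was 0.026 over the dim, 0.205 over the middle and 0.178 over the bright listed probe sets. Control 1-1 was the lowest of the 6 Control arrays at 29 of 55 listed probe sets (52.7%), against 24.5% of all probe sets.

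Levels of tissue marker genes and a measure of RNA quality also differed between arrays. The source of the yolk and eggshell RNA was not tested. Over 15 measured yolk and eggshell genes, which adult females express, the mean log2 expression ranged from 5.47 to 6.92 in Control, from 5.51 to 7.36 in CDX and from 5.55 to 7.65 in MLX arrays, and the median difference of CDX from Control was 0.62 with 14 of 15 higher. Of 8 probe sets for 4 genes of neurons, 7 were lower in CDX than in Control males, with a median of -0.10, and the mean per array ranged from 7.43 to 7.69 in Control and from 7.38 to 7.56 in CDX. All 9 accessory gland genes were lower in CDX than in Control males, with a median of -0.095, while 11 testis genes had a median of -0.012. The accessory gland mean was 12.87 and 12.90 in the arrays of CDX population 2. In the other CDX arrays it ran from 13.26 to 13.36, within the Control range of 13.16 to 13.42. In MLX against Control males 14 of 15 yolk and eggshell genes were higher, with a median of 0.32. All 9 accessory gland genes were lower in that comparison, with a median of -0.056. The neuron probe sets were divided there, 5 of 8 above 0 and 3 below, with a median of 0.013. In MLX against CDX males 7 of 8 neuron probe sets were higher, with a median of 0.10, and 14 of 15 yolk and eggshell genes were lower, with a median of -0.30. None of these marker probe sets passed the adjusted threshold in limma. At an unadjusted p under 0.05 there were 0 of them for CDX minus Control, 1 (accessory gland) for MLX minus Control and 1 (neurons) for MLX minus CDX. With the yolk and eggshell mean as a covariate the median of the listed genes was -0.061 for CDX minus Control. Without the 6 arrays highest in that mean it was -0.054 for CDX minus Control, -0.046 for MLX minus Control with 80.0% lower, and 0.0045 for MLX minus CDX with 49.1% lower. The part of the neuron and accessory gland levels in the shift was not tested, and in whole bodies fewer cells of a type and less RNA per cell cannot be told apart.

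The difference between 3' and 5' probe sets of 4 control transcripts, which grows as RNA degrades, ranged from 1.38 to 1.62 in Control, from 1.36 to 1.58 in CDX and from 1.19 to 1.50 in MLX arrays, where MLX 3-2 was the highest. With this difference as a covariate the median of CDX minus Control was -0.051, that of MLX minus Control turned to 0.0092 with 40.0% lower, and that of MLX minus CDX became 0.061.

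The size of the shift was as scattered over the listed genes as differences are over the whole array. The SD of the 55 differences was 0.0897 for CDX minus Control and 0.0897 over all probe sets. For MLX minus Control it was 0.104 beside 0.0964, and for MLX minus CDX 0.0745 beside 0.0866. The middle 50% of the CDX minus Control differences ran from -0.11 to -0.014, and 36 of 55 lay within 0.1 of 0.

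In CDX males the median was below 0 in each class of signal, although in the dim class the share of lower probe sets was close to that of all dim probe sets. All probe sets were divided into 3 classes of equal size at mean log2 signals of 5.33 and 8.31, which placed 9 listed probe sets in the dim, 26 in the middle and 20 in the bright class. The median of CDX minus Control was -0.034, -0.090 and -0.046 in the dim, middle and bright classes, beside -0.0062, 0.0022 and 0.0065 over all probe sets of the same class. The counts below 0 were 5 of 9 (55.6%), 20 of 26 (76.9%) and 17 of 20 (85.0%), beside 53.8%, 48.6% and 45.4% of all probe sets of the class. For MLX minus Control the medians were -0.047, -0.024 and -0.023, with 6 of 9, 17 of 26 and 15 of 20 below 0, beside 56.5%, 46.2% and 43.5% of all. For MLX minus CDX they were -0.012, 0.043 and 0.017, and the bright probe sets spread least, with an SD of 0.028.

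**Figure D2:**
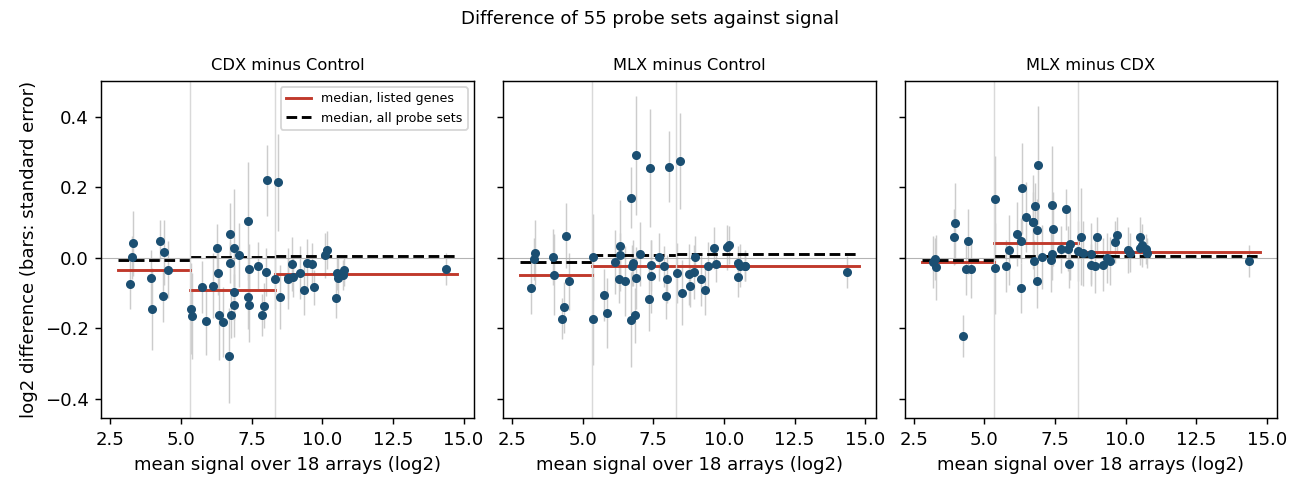
Difference of each of the 55 listed probe sets (log2, vertical axis, with the standard error from limma) against its mean log2 signal over 18 arrays, for the 3 comparisons. Grey vertical lines separate the dim, middle and bright classes, solid lines give the median of the listed probe sets in each class and dashed lines that of all probe sets. For CDX minus Control the solid lines lie at -0.034, -0.090 and -0.046, each below the dashed line of its class.

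The brightest of the listed genes was apolpp, which encodes the apolipoprotein that carries lipid in the haemolymph. Its log2 expression ran from 14.33 to 14.45 (median 14.39) in Control, from 14.28 to 14.43 (median 14.36) in CDX and from 14.29 to 14.44 (median 14.34) in MLX arrays. The groups overlapped almost fully, and CDX minus Control was -0.031. The dimmest was 1 of the probe sets of dati, a zinc finger gene needed for female mating behaviour, at a mean of 3.18. Its log2 difference was -0.074 for CDX and -0.086 for MLX minus Control.

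Different probe sets of a gene shared a direction in some genes and not in others. For 11 genes with 26 probe sets, all probe sets of the gene lay on the same side of Control in 6 of 11 genes for CDX, with CG11360, Cadps, RhoGAP102A and dati lower throughout and Ank and Rnf11 higher throughout. The count was 7 of 11 for MLX minus Control and 6 of 11 for MLX minus CDX. With 1 probe set per gene, the brightest, 33 of 40 genes were lower in CDX than in Control males with a median of -0.055, and 30 of 40 were lower in MLX males with a median of -0.024. The largest distance between probe sets of a gene was 0.30 for CDX minus Control, in PMCA.

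For 8 listed probe sets the 3 population means of CDX males all lay below the 3 of Control males, which is 14.5% of 55 beside a background of 4.13%, and 1 had all of them above (background 4.12%). The 8 belonged to Cadps, MED26, NfI, PMCA, RhoGAP102A (2 probe sets), dati (its brighter probe set) and zfh2. In MLX against Control males 3 lay below (dati, fd102C and toy, 3.84% of all) and 1 above (4.67%). For dati this was the dimmer probe set, which overlapped in CDX males, while the brighter one overlapped in MLX males. For toy it was the middle probe set. That of dati and the probe set of fd102C have signals in the lowest of 3 classes. In MLX against CDX males 1 lay below (fd102C, 3.0%) and 2 above (NfI and RhoGAP102A, 3.13%). Population means of the other chromosome 4 genes lay below Control in 4 of 27 probe sets in CDX males (14.8%) and in 0 of 27 in MLX males.

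Among the developmental transcription factors, 11 of 14 probe sets (78.6%) were lower in CDX than in Control males, with a median of -0.066. In MLX males 11 of 14 were lower, with a median of -0.050. Of the 55 listed probe sets 76.4% and 69.1% were lower, and of all probe sets 49.3% and 48.7%. The group holds regulators of eye, nerve and appendage development. None passed the adjusted threshold in limma. The brightest was ci, with means of 8.03 ± 0.084, 7.99 ± 0.11 and 7.97 ± 0.095 (SD, n = 6 arrays) for Control, CDX and MLX in turn. In NfI, the single nuclear factor I gene of the fly, the difference was -0.16 (SE 0.13) for CDX minus Control and 0.20 for MLX minus CDX. In zfh2, a zinc finger homeodomain factor of the dim class at a mean of 3.98, it was -0.15 (SE 0.12) for CDX minus Control.

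The eye selector toy, a Pax6 gene, was measured by 3 probe sets. The brightest had log2 expression from 7.83 to 8.02 (median 7.96) in Control, from 7.66 to 7.89 (median 7.78) in CDX and from 7.81 to 8.12 (median 7.90) in MLX arrays. The CDX arrays lay lowest, but their highest value passed the lowest Control array, Control 1-1, and the highest MLX array was MLX 3-2. Its difference was -0.16 (SE 0.059) for CDX minus Control and 0.14 for MLX minus CDX, with unadjusted limma p of 0.0121 and 0.0297 and an adjusted p of 1.0 for both. The middle probe set was -0.18 in CDX and -0.16 in MLX males, while the dimmest, near the floor of the array at a mean of 3.27, was 0.0012 and -0.0027. The related gene ey differed from Control by 0.027 in CDX and by -0.059 in MLX males.

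A forkhead gene, fd102C, had the smallest unadjusted p of the listed genes for MLX minus CDX. Its log2 expression ran from 4.22 to 4.47 (median 4.27) in Control, from 4.31 to 4.42 (median 4.34) in CDX and from 3.97 to 4.25 (median 4.13) in MLX arrays. The MLX and CDX arrays did not overlap, whereas the MLX and Control arrays did. The difference was -0.22 (SE 0.058) for MLX minus CDX and -0.17 (SE 0.058) for MLX minus Control, with unadjusted limma p of 0.00121 and 0.00799 and an adjusted p of 1.0. Its signal lies in the dim class, and CDX minus Control was 0.049.

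**Figure D3:**
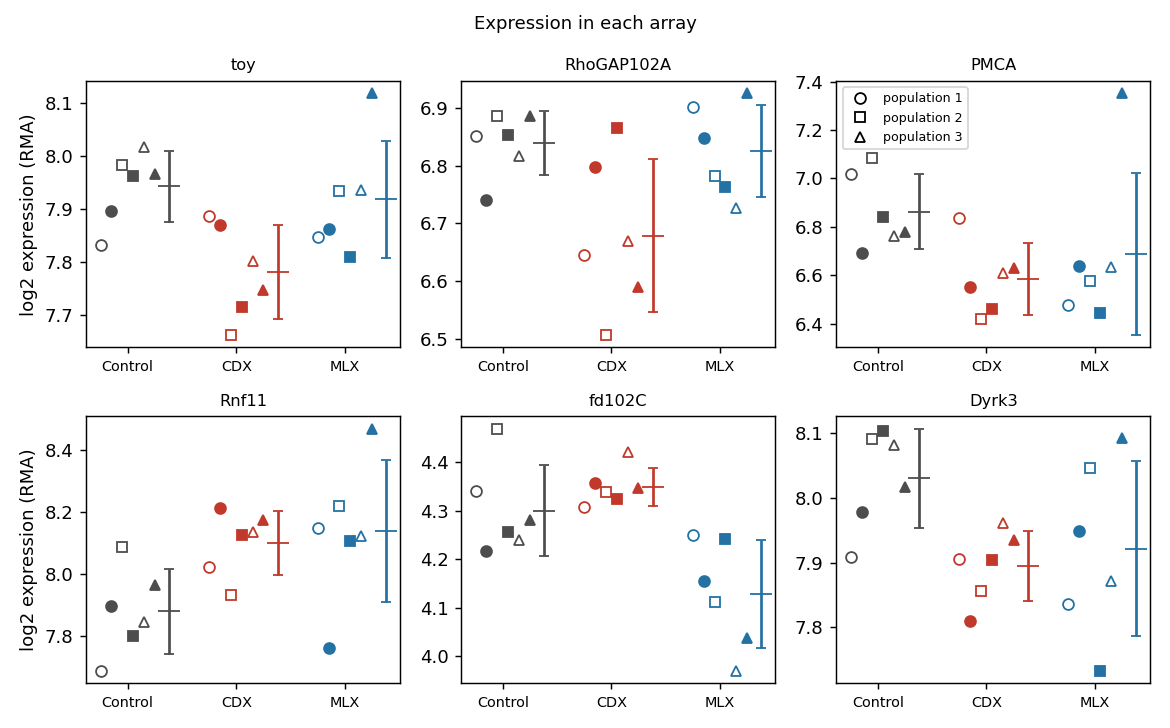
Log2 expression (RMA, vertical axis) of 6 probe sets in each array by treatment, with symbols as populations, open for male 1 and filled for male 2, and bars for the mean and SD of 6 arrays. The panels show the brightest probe sets of toy and RhoGAP102A, the dimmest probe set of PMCA, the dimmer probe set of Rnf11, fd102C and Dyrk3. MLX 3-2 is the highest array for toy, RhoGAP102A, PMCA and Rnf11, and the MLX arrays of fd102C, up to 4.25, lie below the CDX arrays, which start at 4.31.

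Of the other nuclear regulators, the 3 measured were all lower in both treatments than in Control males, with medians of -0.11 for CDX and -0.099 for MLX. The shares over all probe sets were 49.3% and 48.7%. MED26, a subunit of the Mediator complex that links activators to RNA polymerase, had means of 10.56 ± 0.058, 10.44 ± 0.075 and 10.50 ± 0.097 (SD, n = 6 arrays) for Control, CDX and MLX in turn, and its 3 CDX population means lay below those of Control. Its difference of -0.11 (SE 0.055) had an unadjusted limma p of 0.0511. Pur-alpha, a single-strand nucleic acid binding protein, differed by -0.11 and Hcf, a cofactor of chromatin modifying complexes, by -0.11 in CDX males. The signal of Hcf lies in the dim class, at a mean of 4.35.

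Genes of the synapse, of transmitters and of axon guidance were lower in CDX than in Control males at 10 of 13 probe sets, with a median of -0.054, beside 49.3% of all probe sets. In MLX males 7 of 13 (53.8%) were lower, with a median of -0.022, a share near the 48.7% of all probe sets. The brightest was unc-13, which primes synaptic vesicles for release, at -0.018 in CDX and 0.028 in MLX males. Syt7, a synaptotagmin, was at -0.054 and 0.0037. Cadps, needed for release from dense-core vesicles, differed by -0.18 (SE 0.10) and -0.061 at its 2 probe sets in CDX males, and the CDX population means of the first lay below those of Control. The GABA transporter Gat went the other way, at 0.10 in CDX and 0.25 in MLX males, with a standard error of 0.17, the largest of the 55.

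PlexB, the semaphorin receptor plexin B, was measured by 4 probe sets that did not share a direction. In CDX males they differed from Control by -0.098, -0.082, -0.059 and 0.016. In MLX males the same probe sets differed by -0.16, -0.11, -0.047 and 0.063. The probe set at -0.16 had an unadjusted limma p of 0.0483 and an adjusted p of 1.0, and its difference was -0.048 with the 3' minus 5' covariate and -0.071 without MLX population 1. Its log2 expression ran from 6.82 to 7.05 in Control and from 6.53 to 7.05 in MLX arrays, so that the groups overlapped, and the highest MLX array was MLX 3-2.

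Secreted ligands, kinases and adaptors were lower in CDX than in Control males at all 8 probe sets, with a median of -0.10. In MLX males 7 of 8 were lower, with a median of -0.027. Of the 55 listed probe sets 76.4% and 69.1% were lower, and of all probe sets 49.3% and 48.7%. RhoGAP102A gives 2 of the 8. The TGF-beta ligands Actbeta, an activin, and myo, a myostatin homologue, differed by -0.11 and -0.079 in CDX males. The brightest, the signalling adaptor Crk, differed by -0.044, and Asator, a tau-tubulin kinase that associates with the spindle matrix, by -0.090. For the kinase gene Dyrk3 log2 expression ran from 7.91 to 8.10 (median 8.05) in Control, from 7.81 to 7.96 (median 7.90) in CDX and from 7.73 to 8.09 (median 7.91) in MLX arrays. Of its Control arrays, Control 1-1 lay within the CDX range. CDX minus Control was -0.14 (SE 0.064), with an unadjusted limma p of 0.0489 and an adjusted p of 1.0.

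RhoGAP102A, which encodes a GTPase activating protein, had the smallest distance between its probe sets for CDX minus Control, 0.0053, beside 0.0055 in Rnf11. Both differed by almost the same amount in CDX males, by -0.16 at the brighter and by -0.17 at the dimmer one, and at each the 3 CDX population means lay below those of Control. The brighter ran from 6.74 to 6.89 (median 6.85) in Control, from 6.51 to 6.87 (median 6.66) in CDX and from 6.73 to 6.93 (median 6.82) in MLX arrays. The CDX and Control arrays overlapped through CDX 1-2 and CDX 2-2. The differences were -0.16 (SE 0.066) for CDX minus Control and 0.15 for MLX minus CDX, with unadjusted limma p of 0.0237 and 0.0373 and an adjusted p of 1.0. Without the 6 arrays highest in yolk and eggshell genes they were -0.080 and 0.059.

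The group of ion pumps, lipid transport, cytoskeleton and pigment genes was the one role whose median lay above 0, at 0.0071 in CDX males, with 3 of 7 probe sets lower, and at 0.014 in MLX males. PMCA, the calcium pump of the plasma membrane, was measured by 3 probe sets. At the 2 brighter ones CDX minus Control was -0.057 and 0.022. The dimmest of the 3 lies in the middle class of signal. Its log2 expression ran from 6.69 to 7.08 (median 6.81) in Control, from 6.42 to 6.84 (median 6.58) in CDX and from 6.44 to 7.35 (median 6.61) in MLX arrays. Its population means in CDX males lay below those in Control males although single arrays overlapped, and the difference was -0.28 (SE 0.13), with an unadjusted limma p of 0.0519. Ank, an ankyrin, was at 0.0071 and 0.041, and yellow-h, of the yellow family, was at 0.068 in CDX and 0.17 in MLX males.

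Genes of RNA and protein turnover divided into 3 slightly lower genes and 1 higher gene. Rad23, a shuttle to the proteasome, differed by -0.036 in CDX males, gw, the GW182 protein of microRNA silencing, by -0.049, and 4E-T, a translational repressor, by -0.042. Rnf11, which encodes a RING finger protein, was higher at both of its probe sets in both treatments. At the dimmer probe set log2 expression ran from 7.69 to 8.09 (median 7.87) in Control, from 7.93 to 8.21 (median 8.13) in CDX and from 7.76 to 8.47 (median 8.14) in MLX arrays. The single arrays overlapped, but all 3 population means of CDX and of MLX males lay above those of Control males. The differences were 0.22 (SE 0.10) for CDX and 0.26 (SE 0.10) for MLX minus Control, with unadjusted limma p of 0.0406 and 0.0185 and an adjusted p of 1.0. The brighter probe set gave 0.21 and 0.28 (SE 0.14), with overlapping population means. Rnf11 and PMCA overlap in the annotation and the sources used here do not state the strand each probe set reads.

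**Figure D4:**
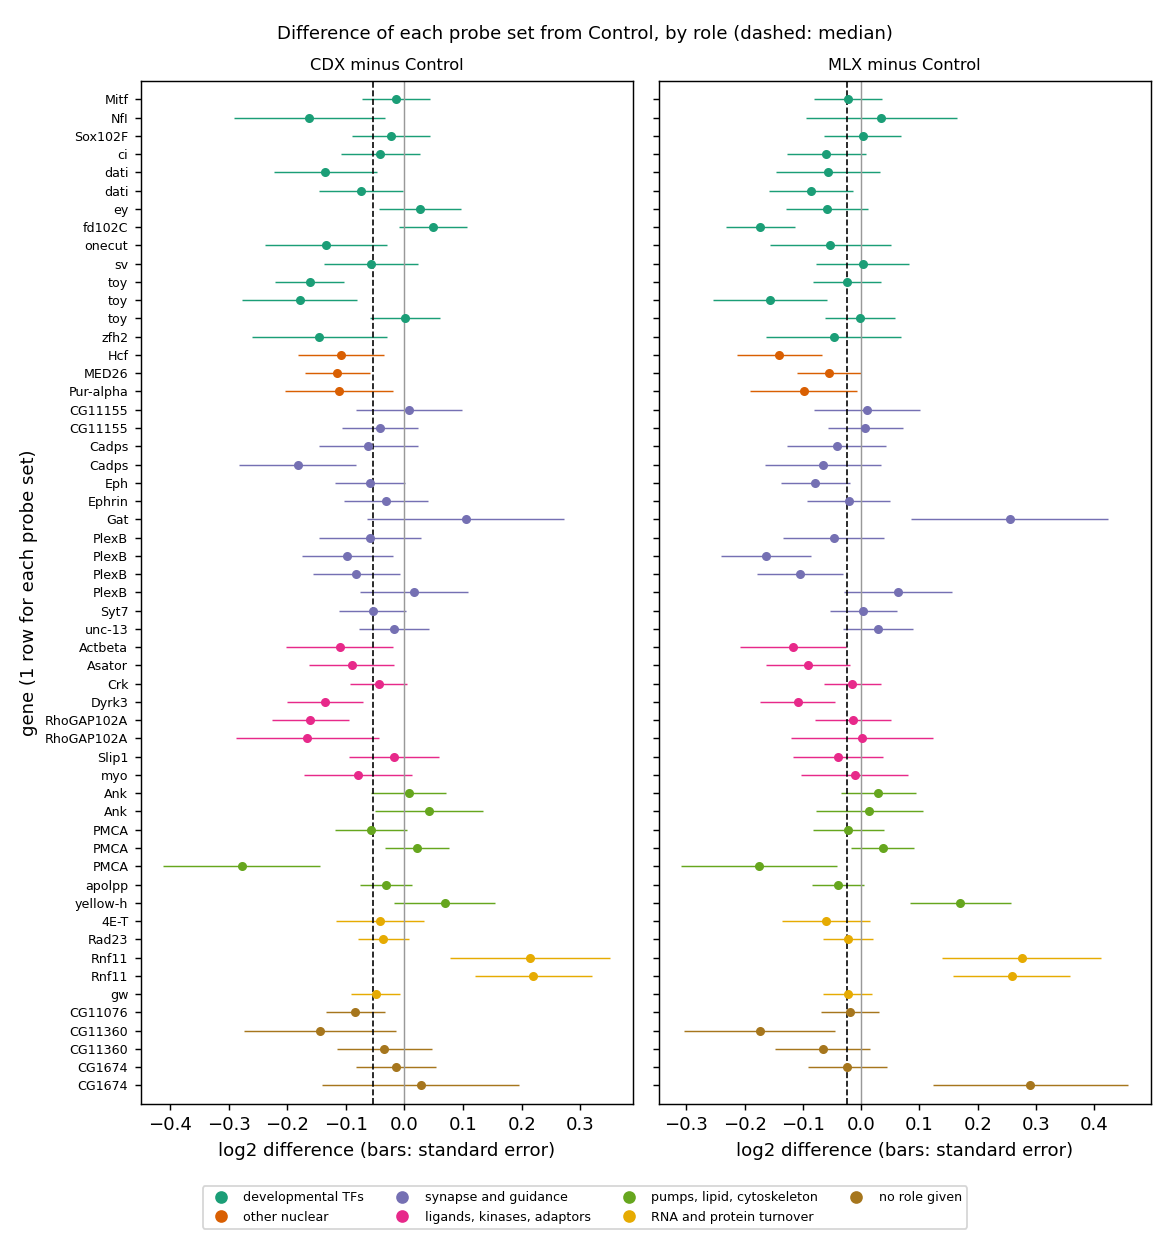
Difference of each listed probe set from Control (log2, horizontal axis, with the standard error from limma) in CDX males on the left and in MLX males on the right, with genes grouped and coloured by role and the dashed line at the median, -0.054 and -0.024. In CDX males all 8 probe sets of ligands, kinases and adaptors lie left of 0, while both probe sets of Rnf11 lie at 0.21 and 0.22.

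The 3 listed genes without a known role to give here had 4 of 5 probe sets lower in CDX and 4 of 5 in MLX males. The shares over all probe sets were 49.3% and 48.7%. The brightest of the 3 genes, CG11076, differed by -0.084 in CDX males. CG1674 was at -0.014 at its brighter and at 0.028 at its dimmer probe set, and in MLX males its dimmer probe set differed by 0.29 (SE 0.17).

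Lower probe sets were found along the whole chromosome. The 80 protein-coding genes of chromosome 4 were numbered in the order of the annotated assembly, without coordinates, since no source used here names the build behind the array. In CDX males the median was -0.058 over 30 listed probe sets of genes up to number 41 and -0.042 over 25 probe sets of the genes after it, with 22 and 20 lower than Control. In MLX males the medians were -0.022 and -0.040. Of the measured listed genes, 14 overlap another gene. Their 22 probe sets had a median of -0.049 in CDX males, and the 33 probe sets of the other genes had -0.054.

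**Figure D5:**
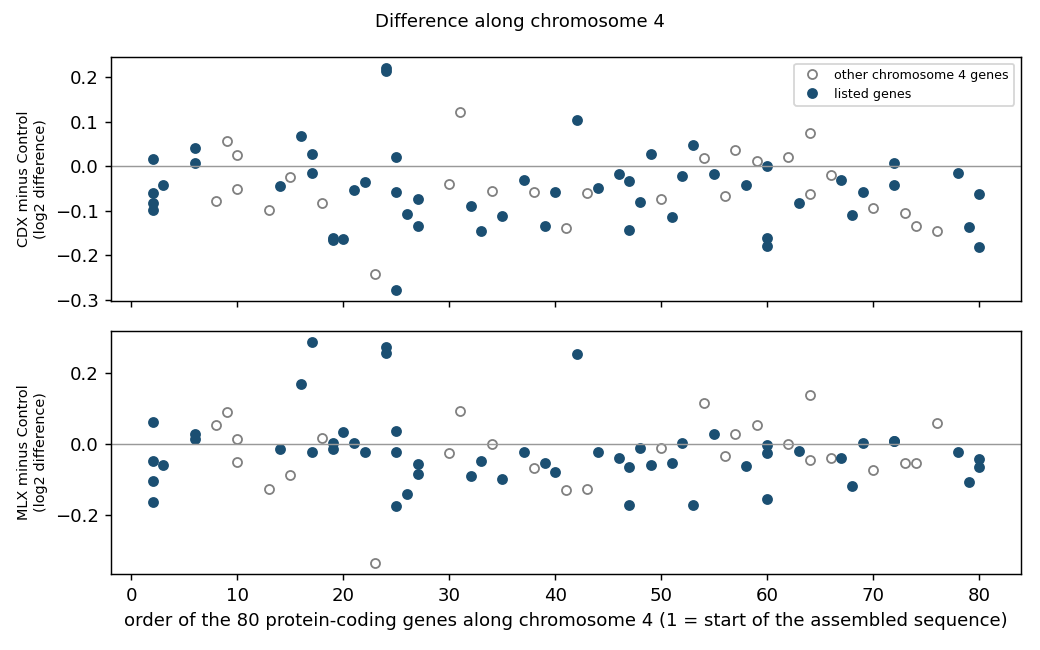
Difference from Control (log2, vertical axis) of every chromosome 4 probe set against the order of its gene among the 80 protein-coding genes of the chromosome, in CDX males above and in MLX males below. Filled points are the listed genes and open points the other chromosome 4 genes. In the upper panel most points lie below 0 along the whole axis, and the 2 points near 0.22 are Rnf11.

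The arrays of male 1 and of male 2 gave medians of the same sign in CDX males. Both sets of arrays came from the same populations, so they are not independent of each other. With male 1 arrays alone the median of CDX minus Control was -0.031 and 38 of 55 were lower, and with male 2 arrays alone it was -0.073 and 47 of 55 were lower. For MLX minus Control the median was -0.048 with male 1 arrays, beside 0.010 over all probe sets. With male 2 arrays it was -0.011 and 54.5% were lower, beside -0.0082 and 53.6% over all probe sets and 0.011 over the other chromosome 4 genes, so that no shift of the listed genes was seen there. For MLX minus CDX the medians were -0.0020 and 0.058, beside 0.013 and -0.0090 over all probe sets, and MLX 3-2 is among the male 2 arrays.

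Of 7 known regulators of chromosome 4 chromatin, 4 were measured by a probe set of their own, and 0 of 4 passed the adjusted threshold in limma in any comparison, with 0 at an unadjusted p under 0.05. Pof had means of 12.21 ± 0.11, 12.21 ± 0.11 and 12.22 ± 0.12 (SD, n = 6 arrays) for Control, CDX and MLX in turn. The gene of HP1a was at 9.59 ± 0.042, 9.62 ± 0.048 and 9.64 ± 0.054, and differed by 0.034 (SE 0.042) for CDX minus Control. The gene wde, the cofactor of the histone methyltransferase egg, differed by -0.10 (SE 0.067) and Su(var)3-7 by 0.084 (SE 0.068) for CDX minus Control.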

How the data were processed

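Expression was measured on 18 arrays (Affymetrix GeneChip Drosophila Genome 2.0). The authors made the deposited log2 values from the array intensities by RMA in affy (BioConductor 2.4). The version of affy was not given in the sources used here. RMA sets all arrays to 1 distribution, so that differences are relative. Array medians were 6.96 to 7.08, and precision is limited by the number of arrays. Of 18952 probe sets, 183 Affymetrix controls were left out. Probe sets were named from the platform annotation and placed on arms with RefSeq (Release 6 plus ISO1 MT).

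limma 3.58.1 (R 4.3.3) was fitted to treatment, with 9 populations as a random block (duplicateCorrelation, correlation 0.19), eBayes, and Benjamini-Hochberg adjustment over 18769 probe sets at 0.05. Medians over genes are descriptions without a test. The fit was tested on simulated data. Named genes have non-overlapping population means (up to 8 per side), 3 or more probe sets, the highest signal of a role, or an extreme signal. Genes at an unadjusted p under 0.05 and further examples of each role, such as Gat, CG1674 and yellow-h, were chosen after their values were seen. The members and lists were chosen with earlier results of these data known. Alternatives were 21 planned fits and 2 without single arrays.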

Additional observations from a re-analysis of the deposited data

Results flagged for a closer look

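In 84 sets of 6 arrays, 7 had a highest or lowest array far from the other 5 by Dixon's criterion, which chance alone meets in about 1 of 20 sets. The sets are not independent of each other, since the median of the listed genes is taken over probe sets that form other sets. They are thus not a count of separate outliers. MLX 3-2, which was high across the chromosome, accounted for 5 of the 7. It was the highest MLX array in the median deviation of the listed genes, at 0.162 with the next array at 0.015. It was the highest for the dimmest probe set of PMCA, at 7.35 with the next at 6.64, and for Syt7, at 9.19 with the next at 8.97. It was also the highest for MED26, at 10.69 with the next at 10.50, and for unc-13, at 9.84 with the next at 9.67. In ci the array Control 1-1 was the lowest Control array, at 7.86 with the next at 8.05. In Pur-alpha the array CDX 3-1 was the highest CDX array, at 8.75 with the next at 8.42.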

How the results depend on the processing

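The number of listed probe sets past an adjusted p of 0.05 stayed at 0 in each comparison under the 23 alternative fits in limma. The 15 probe sets named for non-overlapping population means or for an unadjusted p under 0.05 kept the sign of the difference that named them in every fit in which they were tested. For those named for non-overlapping population means, leaving out 1 population cannot turn the sign. Several other fits, such as that on population means, return the same difference by construction. The kept sign was thus largely fixed in advance and gives no separate support. Other named genes were not refitted one by one. With the population number, or the array number, as a replicate block, the counts were 0. The medians of -0.054, -0.024 and 0.022 for CDX and for MLX minus Control and for MLX minus CDX cannot move in these fits, since each number holds the treatments equally. Population means with the same population number in different treatments had deviations correlated between -0.14 and 0.38 over 9 pairs. Pairs with unlike numbers were not compared, so whether the numbers pair the populations was not tested. Leaving out 1 population at a time gave medians of -0.080 to -0.031, -0.059 to -0.0089 and -0.0015 to 0.045. Over all alternatives the medians ran from -0.090 to -0.031, from -0.063 to 0.0092 and from -0.012 to 0.061. At an unadjusted p under 0.05 the counts ran from 0 to 2 higher and 0 to 6 lower for CDX minus Control, from 0 to 3 and 0 to 6 for MLX minus Control, and from 0 to 4 and 0 to 1 for MLX minus CDX. The causes of these movements were not tested.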

Other observations

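JYalpha, kept out of the counts because its probe set carries 2 gene identifiers, had log2 expression from 7.20 to 7.96 in Control, from 7.55 to 7.93 in CDX and from 7.42 to 7.93 in MLX arrays. Control 1-1 gave the lowest of the 18 values, and the 3 groups overlapped.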
